A study of Mus musculus with 10 samples.

Results

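The genes described here are 9 genes of tendon and tendon-like matrix, chosen by name: the transcription factors Scx and Mkx, the membrane protein gene Tnmd, the matrix glycoprotein genes Thbs4, Comp and Tnc, the cartilage intermediate layer protein genes Cilp and Cilp2, and the secreted Wnt inhibitor gene Wif1. All 9 were among the 16112 genes counted, and all 9 entered every test. The counted genes had been kept for at least 10 reads in at least 3 libraries, and all 9 meet that rule in the psoas and soleus libraries alone. RNA was sequenced from 3 muscles of young mice in 10 libraries: 3 of extensor digitorum longus (EDL, a fast muscle of the lower leg), 3 of psoas (a fast muscle of the lower back and hip) and 4 of soleus (a slow calf muscle). Every library was labelled wild type, strain B6C3Fe a/a-Ttnmdm/J, the stock of a titin mutation that the labels place in none of these animals. The mice were 42, 54 and 44 days old in EDL 1 to 3, the same 3 ages in psoas 1 to 3, and 42, 44, 32 and 44 days old in soleus 1 to 4. Replicates 1 and 2 of EDL and psoas and soleus 1 were male, EDL 3, psoas 3, soleus 2 and soleus 4 were female, and no sex was given for soleus 3.

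The muscles were taken from animals of another experiment. The labels hold 7 animal codes, and 3 of them cover 2 libraries each, so the libraries are not all from separate mice. The study's methods count fewer mice than there are codes, and where a muscle was cut from its tendons is not given in the sources used here. Total counts per library were between 12737971 and 50431713, and the 3 counts that a count of 0 allows correspond to between 0.0595 and 0.236 CPM (counts scaled to a common library size), a limit for counting error only. The labelled muscles were checked against myosin genes: Myh4, a fast myosin, lay between 38374 and 56666 normalized CPM in EDL and psoas and between 112.9 and 1692 in soleus, and Myh7, the slow myosin, lay between 6836 and 13574 in soleus and between 3.19 and 117 elsewhere. Reads of replicates 1 and 2 of EDL and psoas had been quality-trimmed and those of the other 6 libraries had not, so that values within untrimmed or trimmed libraries are given beside the comparisons.

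Tendons join muscle to bone through parallel collagen fibers that tenocytes, the tendon fibroblasts, lay down and maintain. Scx, a basic helix-loop-helix factor, marks tendon progenitors and tenocytes, and Mkx, a homeodomain factor, is needed for normal tendon collagen. Tnmd, a membrane glycoprotein, is a standard marker of differentiated tenocytes, Thbs4 and Comp are pentameric thrombospondins that bind collagen and are abundant at tendons and their junctions with muscle, and Tnc is a large adhesive glycoprotein of loaded tendon and developing tissue. Cilp and Cilp2 encode secreted matrix proteins first described in cartilage, and Wif1 binds Wnt ligands outside the cell.

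The stretches of DNA before the transcription start are shown for 5 of the genes, because Scx is a factor that binds the short motif CANNTG (an E-box). They come from RefSeq, build GRCm38.p6, with a window of 250 bases upstream of the start. Such windows were matched for 6 of the 9 genes. The lines give the part of each window that lies outside the gene as GENCODE M21 draws it, 5′ to 3′ on the strand of the gene, and capitals mark every CANNTG, a motif that reads the same on both strands. Tnmd is at chrX:133850758-133850979 on the plus strand, Thbs4 at chr13:92794819-92795068 on the minus strand, Tnc (the upstream of its 2 starts) at chr4:64047016-64047265 on the minus strand, Cilp at chr9:65264930-65265179 on the plus strand and Wif1 at chr10:121033754-121033959 on the plus strand.
Tnmd: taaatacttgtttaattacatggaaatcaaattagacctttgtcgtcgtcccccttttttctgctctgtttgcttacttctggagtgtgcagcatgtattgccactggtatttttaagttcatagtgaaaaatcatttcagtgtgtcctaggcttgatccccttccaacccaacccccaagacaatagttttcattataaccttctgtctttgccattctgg
Thbs4: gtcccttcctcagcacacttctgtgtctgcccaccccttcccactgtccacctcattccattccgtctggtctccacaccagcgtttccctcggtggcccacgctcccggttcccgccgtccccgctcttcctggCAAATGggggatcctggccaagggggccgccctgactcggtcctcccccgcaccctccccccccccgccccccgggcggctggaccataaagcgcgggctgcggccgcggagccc
Tnc: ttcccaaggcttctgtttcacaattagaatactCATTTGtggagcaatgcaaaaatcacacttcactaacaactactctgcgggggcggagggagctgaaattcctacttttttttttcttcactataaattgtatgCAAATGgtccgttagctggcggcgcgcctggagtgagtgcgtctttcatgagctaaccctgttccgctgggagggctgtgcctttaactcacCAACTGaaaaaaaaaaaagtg
Cilp: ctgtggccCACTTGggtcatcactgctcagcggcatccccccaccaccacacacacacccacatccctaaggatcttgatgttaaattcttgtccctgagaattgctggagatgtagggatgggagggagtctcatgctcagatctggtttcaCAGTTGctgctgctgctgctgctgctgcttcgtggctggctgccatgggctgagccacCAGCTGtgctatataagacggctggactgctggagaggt
Wif1: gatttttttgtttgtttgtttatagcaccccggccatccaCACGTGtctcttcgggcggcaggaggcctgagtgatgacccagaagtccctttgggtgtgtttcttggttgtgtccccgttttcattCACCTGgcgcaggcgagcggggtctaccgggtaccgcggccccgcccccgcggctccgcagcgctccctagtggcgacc
The Tnmd window held no CANNTG, Thbs4 and Cilp2 held 1 each, Wif1 held 2, and Cilp and the upstream Tnc window held 3 each. The window of the other Tnc start, which overlaps the upstream one, held 2. The motif was in 66.2% of the 32851 mouse promoter windows of this length, with a mean of 1.16 and a median of 1 per window. In Cilp the matches began 242, 97 and 39 bases before the start, and in Wif1 210 and 123 bases before it. The specific forms CATCTG and CAGATG, which are each other's reverse complement, were in none of the 6 genes' windows and in 14.4% of all windows. TATAAA, searched on the gene's strand, was found once in the Tnc window and in 7.59% of all windows. Base composition differed widely, from 38.4% G and C in Tnmd to 70.8% in Thbs4. These matches describe letters and not bound sites.

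Summed, the 9 genes were highest in EDL, lowest in psoas and between them in soleus. The sum of their normalized CPM was 597, 609 and 527 in EDL 1 to 3, 33.1, 74.4 and 34.1 in psoas 1 to 3, and 239.6, 421, 150.2 and 246 in soleus 1 to 4. No psoas library reached the lowest soleus library and no soleus library reached the lowest EDL library. In whole-muscle RNA, fewer cells of a type and less RNA per cell cannot be told apart.

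**Figure D1:**
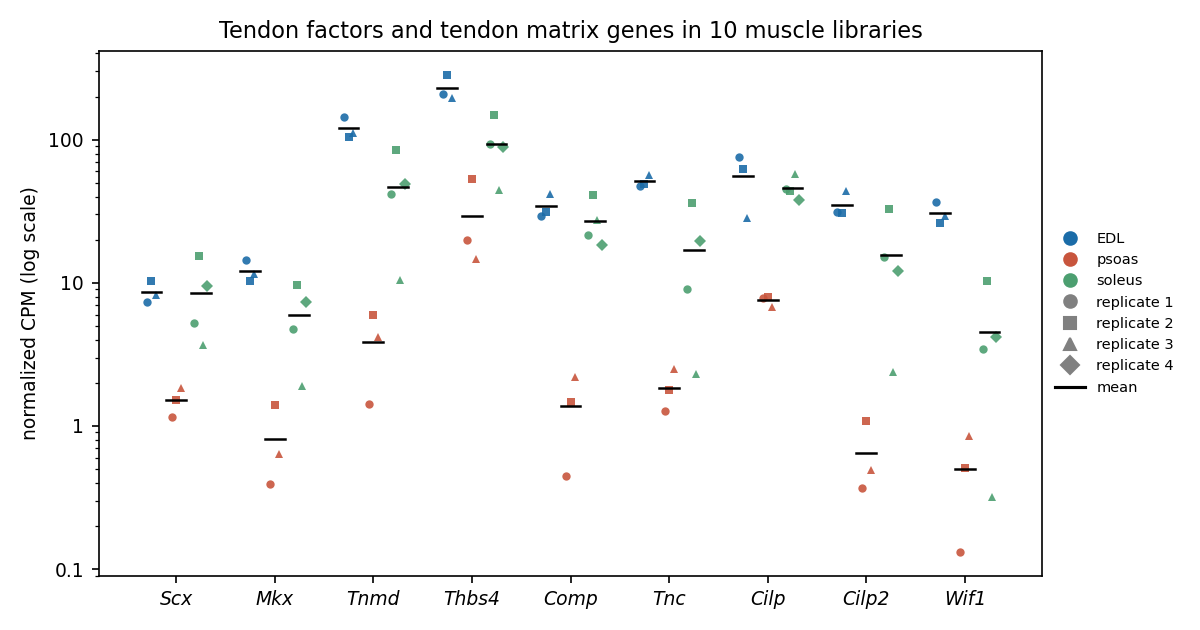
Normalized CPM (log scale) of each of the 9 genes in each library, with 1 point per library, color for the muscle, marker shape for the replicate number and a black bar for the mean. All 9 genes lay lower in each psoas library than in each EDL library, and the 4 soleus points of Wif1 spread over 32.3-fold.

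Scx, at chromosome 15:76457452-76459458 on the plus strand, measured 7.33, 10.2 and 8.18 normalized CPM in EDL 1 to 3, 1.16, 1.52 and 1.84 in psoas 1 to 3, and 5.27, 15.4, 3.67 and 9.50 in soleus 1 to 4. Soleus covered the whole range of EDL, and psoas lay under both other muscles without overlap. The gene lies inside Bop1, a ribosome biogenesis gene on the opposite strand, with 0 shared exon bases. Bop1 ranged from 6.23 to 9.01 CPM in EDL, from 9.31 to 10.8 in psoas and from 7.59 to 8.69 in soleus. It was highest in psoas, where Scx was lowest. Since the strand setting of the counting is not given in the sources used here, reads between Bop1 exons cannot be told from Scx reads.

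Mkx, at chromosome 18:6934518-7004780 on the minus strand, measured 14.4, 10.3 and 11.5 CPM in EDL, 0.396, 1.39 and 0.637 in psoas and 4.79, 9.60, 1.91 and 7.34 in soleus. The 3 muscles did not overlap at all, with soleus in the middle. An annotated transcript on the same strand, AC148004.2, shares 201 exon bases with Mkx and was not analysed here.

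Tnmd, at chromosome X:133850980-133865577 on the plus strand, measured 144.6, 103.7 and 111 CPM in EDL, 1.42, 5.96 and 4.18 in psoas and 41.7, 84.8, 10.4 and 49.1 in soleus. The same order of muscles held without overlap, but soleus 3 stood near psoas, at 1.75 times the highest psoas library, and soleus 2 near EDL. Counted reads of Tnmd were between 54 and 94 per psoas library, against 2022 to 6193 per EDL library.

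Thbs4, at chromosome 13:92751590-92794818 on the minus strand, measured 210, 285 and 196 CPM in EDL, 20.0, 52.7 and 14.7 in psoas and 93.7, 147.7, 44.4 and 88.3 in soleus. Psoas 2 lay above soleus 3, the only overlap among the muscles. Comp, at chromosome 8:70373558-70382066 on the plus strand, measured 29.4, 31.3 and 41.9 CPM in EDL, 0.449, 1.46 and 2.20 in psoas and 21.6, 41.0, 27.7 and 18.4 in soleus. Soleus 2 lay within the EDL range of Comp, the other 3 soleus libraries lay below it, and the lowest soleus library was still 8.37 times the highest psoas library.

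Tnc, at chromosome 4:63959785-64047015 on the minus strand, measured 47.6, 49.1 and 57.1 CPM in EDL, 1.27, 1.78 and 2.48 in psoas and 9.10, 36.2, 2.31 and 19.7 in soleus. EDL was tight, with a coefficient of variation of 9.88%, whereas soleus varied by 87.7% and soleus 3 fell inside the psoas range. The transcript 8030451A03Rik on the opposite strand shares 176 exon bases with Tnc and was not analysed here; since the strand setting of the counting is not given in the sources used here, the reads of the pair cannot be told apart.

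Cilp, at chromosome 9:65265180-65280605 on the plus strand, measured 75.7, 62.7 and 28.3 CPM in EDL, 7.89, 7.99 and 6.73 in psoas and 44.95, 43.5, 57.1 and 37.7 in soleus. It was the one gene whose soleus libraries all lay within the EDL range, and it varied more in EDL (coefficient of variation 44.1%) than in soleus (17.8%) or psoas (9.32%). Cilp2, at chromosome 8:69880369-69887687 on the minus strand, measured 31.2, 30.8 and 43.6 CPM in EDL, 0.369, 1.08 and 0.496 in psoas and 15.1, 32.8, 2.39 and 12.1 in soleus. Despite the shared name, Cilp2 spread 13.7-fold over the soleus libraries and Cilp only 1.51-fold.

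Wif1, at chromosome 10:121033960-121100650 on the plus strand, measured 36.7, 26.2 and 29.4 CPM in EDL, 0.132, 0.507 and 0.850 in psoas and 3.42, 10.3, 0.319 and 4.17 in soleus. Every soleus library lay below every EDL library, and soleus 3 lay within the psoas range. These low values rest on few reads: psoas libraries held between 5 and 12 counts and soleus 3 held 4, close to the 3 counts taken as the limit of detection.

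In psoas against EDL, all 9 genes were lower and all 9 passed the test, by folds between 5.79 for Scx and 72.9 for Wif1. The test was edgeR's quasi-likelihood test in 1 fit of the 10 libraries, and a call needed both a p below 0.01 after Benjamini-Hochberg adjustment over all genes and more than a 2-fold difference. Because some libraries share an animal, these p-values measure the spread between the libraries. Of all 16112 genes, 2.11% were called in this comparison and 1.57% were called as lower in psoas. All 9 genes lay lower in psoas without overlap of libraries, as did 16.3% of all genes. The median log2 fold change was -4.77 over the 9 genes and 0.01 over all genes. The 9 genes were chosen with earlier results of these data known, so their count and direction are descriptions and not independent evidence. Tnmd, Tnc, Cilp2 and Wif1 are also among the genes that the study itself singled out on these libraries.

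The change was largest in the Wnt inhibitor and in Cilp2. On the log2 scale Wif1 fell by 6.19 (SE 0.93, edgeR adjusted p 0.0036) and Cilp2 fell by 5.85 (SE 0.82, adjusted p 0.00288). The tenocyte marker Tnmd was 32.0-fold lower (SE 0.71 in log2 units, adjusted p 0.00302), Tnc stood at -4.84 (SE 0.78, adjusted p 0.00519) and Comp at -4.77 (SE 0.50, adjusted p 0.000836). Of the transcription factors, Mkx, at -3.97 (SE 0.58, adjusted p 0.00345), lay below Scx at -2.53 (SE 0.47, adjusted p 0.00941), but the difference between the folds was not tested. Thbs4 and Cilp, at -2.98 (SE 0.51, adjusted p 0.00654) and -2.88 (SE 0.32, adjusted p 0.00105), changed least beside Scx.

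Comp and Cilp were called in each of 22 alternative analyses of psoas against EDL, with adjusted p up to 0.00716 and 0.00883. The other 7 genes kept their direction in all 22 but were called in 10 (Scx), 13 (Wif1), 14 (Thbs4 and Tnc), 16 (Cilp2) and 17 (Mkx and Tnmd) of them, with adjusted p between 5.62e-11 and 0.0875. The number called was 3 without EDL 1, 4 without EDL 2, 2 without psoas 1 or without psoas 3, and 4 without psoas 2, where 1 muscle keeps 2 libraries. Calls over all genes fell from 340 to 69 without EDL 1 and 87 without EDL 2. They fell to 92, 61 and 87 without psoas 1, psoas 2 and psoas 3. Without psoas 1 or psoas 3, the genes still called were Comp and Cilp, and the 7 lost calls had adjusted p up to 0.0342. Leaving out soleus 1 or soleus 4, which enter the fit but not the comparison, ended the calls of Scx and Thbs4 (adjusted p between 0.0114 and 0.0173). Those 2 fits called 194 and 174 of all genes. DESeq2's Wald test called all 9 (6.79% of all genes), and limma-voom called 5 of them, without Scx, Tnc, Cilp2 and Wif1 (2.19% of all genes).

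Within libraries of one kind of read preparation, psoas was lower for all 9 genes. In EDL and psoas the trimmed libraries were all male and the untrimmed ones female, so trimming and sex cannot be told apart there. Between the 2 trimmed libraries of each muscle the log2 difference ran from -6.62 to -2.71, with a median of -4.99, and between the untrimmed psoas 3 and EDL 3, a single library each, from -6.46 to -2.07, with a median of -4.25. RNA integrity, as the study reports it, was higher in each EDL library than in each psoas or soleus library. It was lowest in psoas 1, which was the lowest psoas library for 7 of the 9 genes. The part of RNA integrity in the results was not tested.

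**Figure D2:**
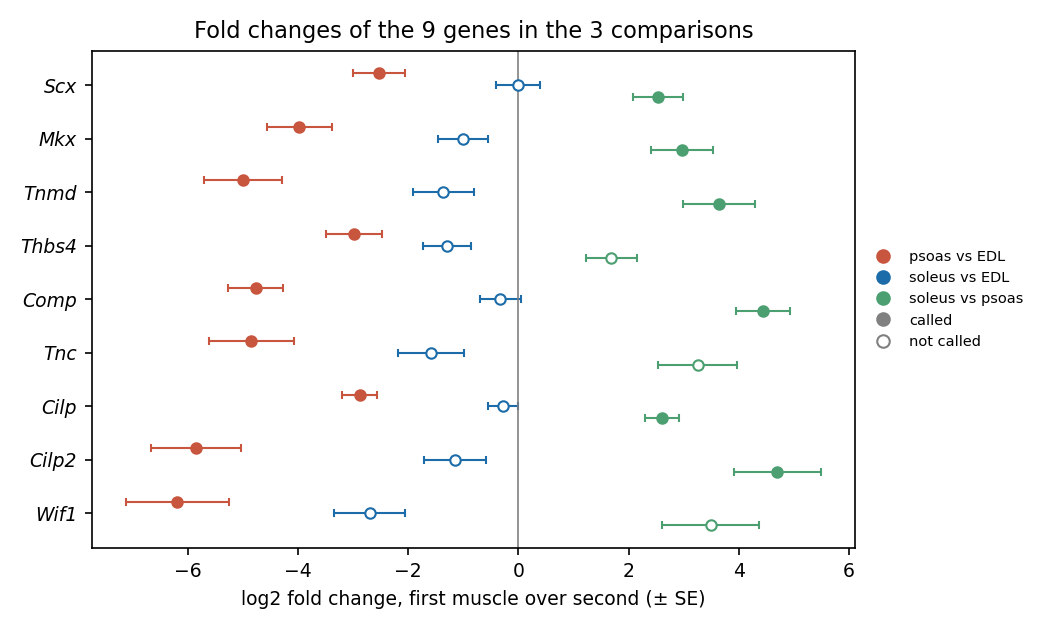
Log2 fold change of each gene (x axis, first muscle over second, with SE bars) in the 3 comparisons from the edgeR fit, filled where both limits of a call were met. All 9 psoas against EDL points are filled and negative, from -6.19 for Wif1 to -2.53 for Scx, no soleus against EDL point is filled, and 6 of the 9 soleus against psoas points are filled.

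In soleus against EDL, edgeR called 0 of the 9 genes, although all 9 had a fitted fold below 0 on the log2 scale. In this comparison it called 5.77% of all genes, and 2.18% as lower in soleus. At an unadjusted p under 0.05, 5 of the 9 were lower in soleus (Mkx, Tnmd, Thbs4, Tnc and Wif1), against 18.1% of all genes. The same 5 lay lower without overlap of libraries, against 14.3% of all genes. DESeq2 also called 0 of the 9 (9.43% of all genes), and limma-voom called 1, Wif1 (6.06% of all genes). The median log2 fold change was -1.15 over the 9 genes and -0.05 over all genes.

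Wif1 had the largest difference of the 9, -2.70 on the log2 scale (SE 0.65), short of the call at an edgeR adjusted p of 0.0155. Its adjusted p ranged from 0.00282 to 0.126 over the 22 alternatives, and it passed in 5 of them, among these the fits without soleus 2 and without soleus 3. Tnc followed at -1.59 (SE 0.59, adjusted p 0.0818) and passed only in the fit with sex as a covariate, which leaves out soleus 3 (adjusted p 0.00611). Tnmd at -1.36 (SE 0.55, adjusted p 0.102), Thbs4 at -1.30 (SE 0.44, adjusted p 0.059), Cilp2 at -1.15 (SE 0.57, adjusted p 0.17) and Mkx at -1.01 (SE 0.45, adjusted p 0.135) passed in none of the 22.

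The remaining genes, Scx, Comp and Cilp, had the smallest differences. Scx stood at -0.005 (SE 0.40, edgeR adjusted p 0.996), which changed sign among the alternatives, between -0.47 and 0.18. Comp stood at -0.33 (SE 0.37, adjusted p 0.56) and Cilp at -0.28 (SE 0.27, adjusted p 0.49). Cilp changed sign, to 0.33, with read trimming as a covariate. Since the 4 soleus libraries were untrimmed, the comparison within untrimmed libraries rests on EDL 3 alone: 7 of the 9 genes were lower in soleus, and Scx and Cilp were higher, by 0.05 and 0.70 on the log2 scale.

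In soleus against psoas, all 9 genes had a fitted fold above 0 and 6 were called as higher: Cilp2, Comp, Tnmd, Mkx, Cilp and Scx. Of all genes 5.69% were called here and 2.99% were called as higher in soleus. The same 6 genes lay higher in soleus without overlap of libraries, as did 13.9% of all genes. The median log2 fold change was 3.26 over the 9 genes and 0.02 over all genes. This comparison shares its psoas libraries with psoas against EDL, so the folds are not independent.

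On the log2 scale, Cilp2 was higher by 4.70 (SE 0.78, edgeR adjusted p 0.00239), Comp by 4.44 (SE 0.48, adjusted p 0.00022) and Tnmd by 3.64 (SE 0.66, adjusted p 0.00379). The factors Mkx and Scx were higher by 2.97 (SE 0.56, adjusted p 0.00466) and 2.53 (SE 0.46, adjusted p 0.00379), and Cilp by 2.60 (SE 0.31, adjusted p 0.000353). Wif1 at 3.49 (SE 0.88, adjusted p 0.0217), Tnc at 3.26 (SE 0.72, adjusted p 0.0112) and Thbs4 at 1.69 (SE 0.47, adjusted p 0.0322) missed the threshold, and these are the 3 genes whose soleus 3 value fell inside the psoas range.

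Comp and Cilp again passed in all 22 alternatives, with adjusted p up to 0.0019 and 0.00383. Scx passed in 14, Mkx in 13, Tnmd in 15 and Cilp2 in 16, with adjusted p up to 0.0388 over these 4 genes. Omitting psoas 1 left 2 calls and omitting psoas 3 left 3 (568 and 830 over all genes, against 917). With soleus 4 omitted 4 genes were called (602 over all genes), and with psoas 2 or soleus 2 omitted 5 (493 and 609). The fit lacking soleus 3 called 8, all but Thbs4 (786 over all genes). DESeq2 called all 9 (8.58% of all genes) and limma-voom 3 (5.08% of all genes). Within untrimmed libraries, the 4 soleus libraries were above psoas 3 for all 9 genes on average, by 2.20 to 4.98 on the log2 scale.

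For every gene but Cilp, the coefficient of variation was larger over the soleus libraries than over the EDL libraries. Soleus 2 was the highest of the 4 for 8 of the 9 genes, and soleus 3, the shallowest library and the one from the youngest mouse, was the lowest for 7. The part of depth or age in this was not tested. Soleus 4 was the lowest for Comp and Cilp. Relative to the EDL mean of each gene, soleus 3 ran from 1.04% for Wif1 to 102.7% for Cilp, with a median of 15.9%, and soleus 2 ran from 33.4% for Wif1 to 179% for Scx, with a median of 78.2%. Soleus 1 and soleus 4 lay between them, with medians of 40.7% and 41.0%.

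The genes stood at very unequal levels in soleus 3. Tnc, Cilp2, Tnmd and Mkx stood at 4.51%, 6.80%, 8.72% and 15.9% of their EDL means there, whereas Scx stood at 42.8%, Comp at 80.9% and Cilp above its EDL mean. The ratio of the highest to the lowest soleus library was 32.3 for Wif1, 15.6 for Tnc, 13.7 for Cilp2 and 8.11 for Tnmd, and at most 5.02 for the others. No soleus library met Dixon's criterion for an outlier in any of the 9 genes or their sum.

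**Figure D3:**
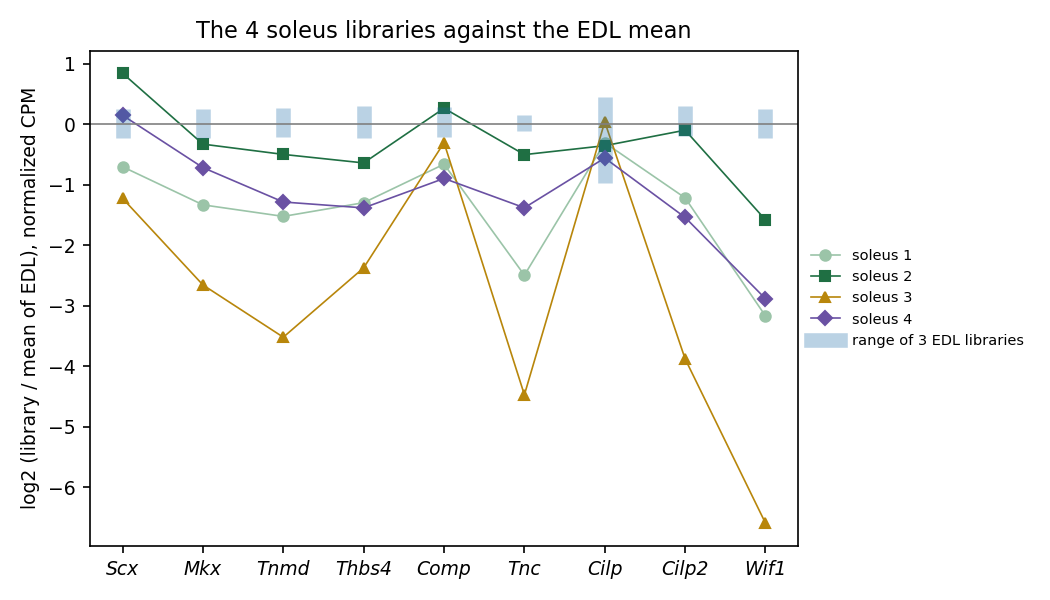
Log2 of the normalized CPM of each gene in each soleus library over the mean of the EDL libraries (y axis), with lines joining the genes of a library and shaded bars for the range of the 3 EDL libraries. Soleus 3 falls to 1.04% of the EDL mean for Wif1 and 4.51% for Tnc but stays at 80.9% for Comp and 102.7% for Cilp, and soleus 2 lies nearest to EDL for most genes.

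By their codes, 3 pairs of libraries came from the same animals. In the animal of EDL 3 and soleus 2, Scx was 1.88-fold and Cilp 1.54-fold higher in soleus, Comp differed by 1.02-fold, and the largest difference was Wif1, which was 2.86-fold lower in soleus. In the animal of psoas 1 and soleus 1, all 9 genes were higher in soleus, from 4.54-fold for Scx to 48.2-fold for Comp. In the animal of psoas 3 and soleus 4 the 9 genes were also higher in soleus, from 4.91-fold for Wif1 to 24.4-fold for Cilp2. These are single libraries and carry no test.

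Levels of different genes were compared as FPKM, here the normalized CPM per kilobase of exon, because the exon length of the 9 genes differs. In EDL, Tnmd (88.5 ± 16.1 FPKM, SD, n = 3) and Thbs4 (69.97 ± 14.5) led and overlapped each other, and both lay above all others. Cilp (13.1 ± 5.77), Wif1 (12.7 ± 2.21), Comp (11.5 ± 2.26), Cilp2 (8.15 ± 1.68) and Tnc (6.60 ± 0.65) followed, each overlapping its neighbor, and the factors came last, with Scx (4.27 ± 0.74) above Mkx (2.95 ± 0.51) without overlap.

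In soleus the order opened the same way, with Tnmd (34.4 ± 22.6 FPKM, SD, n = 4) and Thbs4 (28.4 ± 12.9) overlapping, but Wif1 dropped to the eighth place (1.87 ± 1.72) and each gene from Cilp down to Mkx (1.44 ± 0.81) overlapped its neighbor. In psoas, Thbs4 (8.85 ± 6.26 FPKM, SD, n = 3) came first, apart from Tnmd (2.85 ± 1.69), and Cilp (1.77 ± 0.17) was apart from Scx (0.751 ± 0.17). The other 5 genes of psoas lay at or under 0.461 FPKM on average and overlapped their neighbors, with Cilp2 last (0.15 ± 0.088).

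Ratios between 2 of the genes within a library do not depend on the scaling between libraries, and 4 were compared on the log2 scale after adding 0.5 to each count and dividing by exon length. Each was tested between the muscles with an exact two-sided permutation test, 12 tests in all, where 3 against 3 libraries cannot give a p under 0.1 and 4 against 3 not under 0.0571. None could therefore pass, and adjusted p ran from 0.229 to 0.5.

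The log2 ratio of Scx to Tnmd, the factor over the tenocyte marker, averaged -4.37 (SD 0.48, n = 3) in EDL, -2.90 (SD 0.61, n = 4) in soleus and -1.70 (SD 0.83, n = 3) in psoas. Tnmd was between 15.0 and 29.2 times Scx per kilobase in EDL libraries, between 4.19 and 11.7 times in soleus and between 1.82 and 5.72 times in psoas. Scx rests on 24 to 44 reads per psoas library and lies inside Bop1, whose reads cannot be told from its own. The part of Bop1 reads in this ratio was not tested. EDL did not overlap psoas (exact permutation p = 0.1) or soleus (exact permutation p = 0.0571), the smallest values these tests allow.

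The log2 ratio of Cilp2 to Cilp averaged -0.58 (SD 1.03) in EDL, -3.65 (SD 0.76) in psoas and -2.06 (SD 1.77) in soleus. EDL and psoas did not overlap (exact permutation p = 0.1), and in soleus 3 Cilp was 23.8 times Cilp2 per kilobase, beyond each psoas library. For Comp to Thbs4, both thrombospondins, the log2 ratio averaged -2.60 (SD 0.49) in EDL, -4.28 (SD 1.49) in psoas and -1.58 (SD 0.72) in soleus, and soleus lay above psoas without overlap (exact permutation p = 0.0571). Tnc to Tnmd, at -3.74 (SD 0.34), -3.40 (SD 0.79) and -4.25 (SD 0.52) in EDL, psoas and soleus, overlapped in all 3 comparisons.

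**Figure D4:**
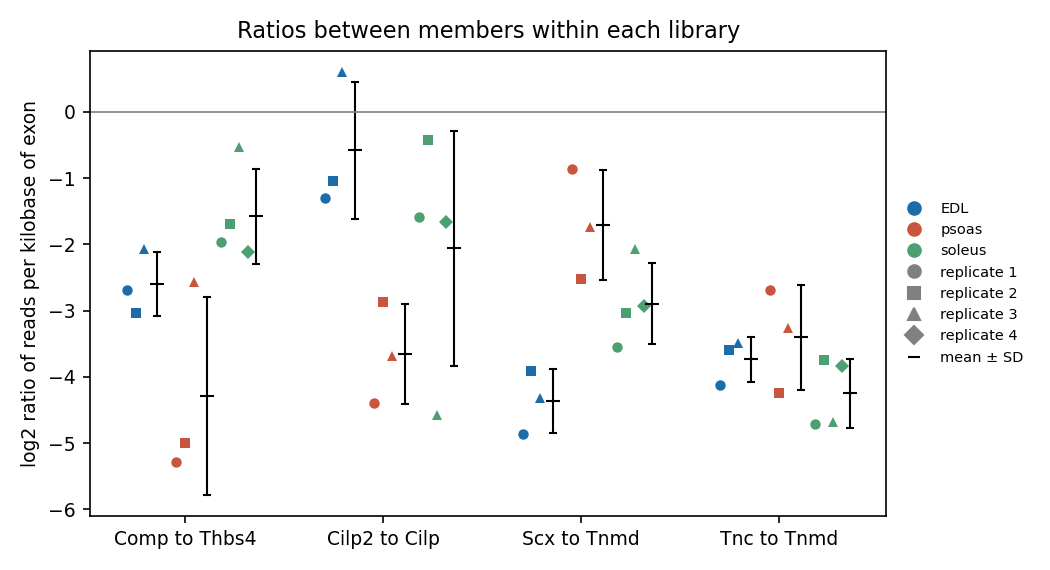
Log2 ratio of reads per kilobase of exon between 2 genes in the same library (y axis), with 1 point per library, color for the muscle and black bars for the mean and SD. Scx to Tnmd lies lowest in EDL (mean -4.37) and highest in psoas (mean -1.70), and Tnc to Tnmd overlaps among all muscles. Scx rests on 24 to 44 reads per psoas library.

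Genes related to the 9 were counted from lists chosen with earlier results of these data known, so that their counts are descriptions. Over all genes, edgeR called 2.11% in psoas against EDL, 5.77% in soleus against EDL and 5.69% in soleus against psoas. Of 6 measured relatives by sequence family, 3 were called as lower in psoas than in EDL, with a median log2 fold change over the list of -2.12 (0.01 over all genes). Thbs2, a thrombospondin, fell by 2.74 (SE 0.34, edgeR adjusted p 0.00154), from 59.1, 43.6 and 38.9 CPM in EDL to 6.10, 7.16 and 8.001 in psoas. Cnmd, the relative of Tnmd, was at 1.04 to 1.10 CPM in EDL and at or below 0.0897 in every psoas and soleus library. It reached 10 reads in the 3 EDL libraries and in 0 others, so it was in the table only because EDL was high, and its calls against EDL are no support. Between soleus and psoas 1 of the 6 was called, Thbs2, higher in soleus by 2.33 (SE 0.32, adjusted p 0.000841) and called in 21 of 22 alternatives.

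Of 21 measured collagens, proteoglycans and other matrix genes of tendon, 12 were called as lower in psoas than in EDL, with a median of -3.69. Col11a1, Kera and Ecrg4 of this list are again genes the study singled out, as are Col11a2, which was called here, and Col1a1, which was not. Ecrg4 and Col11a1, a fibril collagen chain, changed most, by -5.68 (SE 0.62, edgeR adjusted p 0.00101) and -5.34 (SE 0.86, adjusted p 0.0052), in 22 and 12 of 22 alternatives. Col11a1 measured 86.0, 53.0 and 73.9 CPM in EDL, 1.16, 1.39 and 2.90 in psoas and 27.0, 70.9, 3.51 and 39.2 in soleus, with soleus 2 highest and soleus 3 lowest as for most of the 9 genes. Against EDL, soleus was lower for 5 of the 21 (median -1.13, -0.05 over all genes), led by Prg4, the joint lubricant lubricin, at -3.15 (SE 0.55, adjusted p 0.0033), and by Ecrg4 at -2.77 (SE 0.46, adjusted p 0.00232), in 12 and 19 of 22 alternatives. Against psoas, soleus was higher for 7, led by Col11a1 at 4.34 (SE 0.81, adjusted p 0.00458) and by Chad, a cell-binding matrix protein, at 3.62 (SE 0.55, adjusted p 0.00143), in 12 and 22 of 22 alternatives.

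Of 18 measured tendon regulators and TGF-beta or GDF signals, 1 was called between psoas and EDL, Tgfbi, a matrix protein induced by TGF-beta, at -2.22 (SE 0.23, edgeR adjusted p 0.000899). A single call among 18, or 5.56%, is near the 2.11% of all genes and says nothing of the list. In soleus against EDL, the ligand Tgfb3 was higher by 1.28 (SE 0.20, adjusted p 0.00174), and Tgfbi and the homeobox factor Six2 were called as lower. Six2 measured 0.467 to 1.11 CPM in EDL and at most 0.0299 in soleus, and it would not have met the read filter without EDL, so its call is no support. In soleus against psoas, 4 were higher, led by Ccn2, a matricellular growth factor protein, at 2.75 (SE 0.59, adjusted p 0.00982, 7 of 22 alternatives), and by Tgfbi at 1.19 (SE 0.22, adjusted p 0.00421, 14 of 22), and 1, Six2, was called as lower. The medians of this list were -0.46, -0.32 and 0.44 in the 3 comparisons.

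Wif1 was set beside 23 measured Wnt ligands, inhibitors and targets. Between psoas and EDL, Dkk3 alone was called, lower by a log2 fold change of -2.58 (SE 0.38, edgeR adjusted p 0.00346, 16 of 22 alternatives). A single call among 23, or 4.35%, is near the 2.11% of all genes and says nothing of the list. In soleus, Dkk3 was again lower than in EDL, at -2.08 (SE 0.33, adjusted p 0.00208, 18 of 22 alternatives), and Rspo3, a secreted protein that strengthens Wnt signals, was higher than in EDL by 3.74 (SE 0.34, adjusted p 8.84e-05) and than in psoas by 5.10 (SE 0.38, adjusted p 4.72e-05), in all 22 alternatives. Rspo3 measured 27.5, 19.4, 13.5 and 24.0 CPM in soleus, 1.47 to 1.70 in EDL and 0.254 to 0.991 in psoas. The medians of the list were -0.39, -0.35 and 0.36.

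Of 14 measured genes of the myotendinous junction, where muscle fibers meet tendon, 2 were called as lower in psoas than in EDL: Ankrd1, a stretch-responsive muscle protein, at -5.27 (SE 0.63, edgeR adjusted p 0.00144), and Tigd4 at -2.17 (SE 0.28, adjusted p 0.00192), each in 21 of 22 alternatives. In soleus, Xirp1 and Tln2, which encode proteins of actin attachment sites, were higher than in EDL, by 1.94 (SE 0.28, adjusted p 0.0011, 21 of 22) and 1.44 (SE 0.27, adjusted p 0.00489, 15 of 22). Against psoas 5 were higher in soleus, led by Ankrd1 at 3.75 (SE 0.59, adjusted p 0.00182, 18 of 22) and Col22a1, a collagen of this junction, at 2.59 (SE 0.52, adjusted p 0.00673, 8 of 22). The 2 of 14 called in each comparison with EDL are 14.3%, against 2.11% of all genes for psoas and 5.77% for soleus. So few calls say nothing of the list in those comparisons. The 5 of 14 called as higher in soleus than in psoas are 35.7%, against 2.99% of all genes. The medians of the list were -0.34, -0.07 and 0.53. The summed level of the 14 genes, 1533 to 2551 CPM in EDL, 3597 to 4505 in psoas and 2836 to 3547 in soleus, was mostly 1 gene, Xirp2, which was not called in any comparison by edgeR. Without Xirp2 the sum was 648 to 754 CPM in EDL, 562 to 658 in psoas and 799 to 902 in soleus, and psoas and EDL overlapped.

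Markers of other cell types were read beside these results. The 14 muscle fibroblast markers summed to 1266 to 1691 CPM in EDL, 536 to 740 in psoas and 838 to 1196 in soleus, with 4 called as lower in psoas than in EDL (Pcolce and Dpp4 most, by -2.31 and -1.79 on the log2 scale) and 3 as lower in soleus than in EDL (Dpp4 and Smoc2 most, by -1.52 and -1.37). Between soleus and psoas edgeR called 0 of the 14, with 8 at an unadjusted p under 0.05, DESeq2 called 2 and limma-voom 0. The median of the list was -1.08 in psoas against EDL, where that of the 9 genes was -4.77. By library, the fibroblast sum was 951 in soleus 2, the highest library for 8 of the 9, and 996 in soleus 3, the lowest for 7. The part of these cells in the results was not tested.

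Muscle fiber genes summed to 102897 to 137820 CPM in EDL, 156801 to 184859 in psoas and 99241 to 118320 in soleus, so psoas lay above both other muscles where the 9 genes were lowest. Between psoas and EDL the median of the 12 fiber genes was 0.65 on the log2 scale, edgeR called 0 of them with 7 at an unadjusted p under 0.05, DESeq2 called 4 and limma-voom 0. In soleus, edgeR called 5 as higher and 1 as lower than in EDL, and 3 as higher and 2 as lower than in psoas. The part of the fiber share in the results was not tested.

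Macrophage markers summed to 123 to 322 CPM in EDL, 52.0 to 137.2 in psoas and 100.2 to 156.6 in soleus, and 1 of 8, Mrc1, was called as lower than in EDL in both other muscles, in 13 of 22 alternatives for psoas and 10 of 22 for soleus. Limma-voom called 1 of the 8 in psoas and 0 in soleus. Endothelial markers (145.4 to 249.05 CPM in EDL, 135.6 to 150.1 in psoas, 170.9 to 197.8 in soleus), Schwann cell markers (37.7 to 60.7, 19.6 to 94.6 and 32.4 to 45.7) and erythroid markers (5.82 to 73.8, 16.8 to 136.9 and 3.54 to 25.8) had 0 called genes in the 3 comparisons by edgeR, DESeq2 or limma-voom. At an unadjusted p under 0.05 edgeR gave up to 5 of 8 endothelial genes (psoas against EDL), up to 2 of 9 Schwann cell genes and 6 of 6 erythroid genes (both soleus against psoas). Adipocyte markers summed to 113.6 to 232 CPM in EDL, 102.3 to 204 in psoas and 169 to 340 in soleus, with Pck1 and Lipe called as higher in soleus than in EDL. Of 12 measured cartilage and bone genes, 3 were called as lower in psoas and 2 as lower in soleus than in EDL. Epyc, a proteoglycan of growth cartilage, measured 3.75 to 7.63 CPM in EDL, at most 0.0264 in psoas and 0 in every soleus library, and Ucma, at 0.304 to 1.04 CPM in EDL, was at 0 in every psoas library. Neither these genes nor Matn3, the third called in psoas, would have met the read filter without EDL, so these calls are no support. Col9a1 was lower in soleus than in both other muscles, and Sox6, a factor that muscle fibers also express, was lower in soleus than in psoas, by -1.53 on the log2 scale. The part of macrophages, fat or cartilage in the results was not tested.

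**Figure D5:**
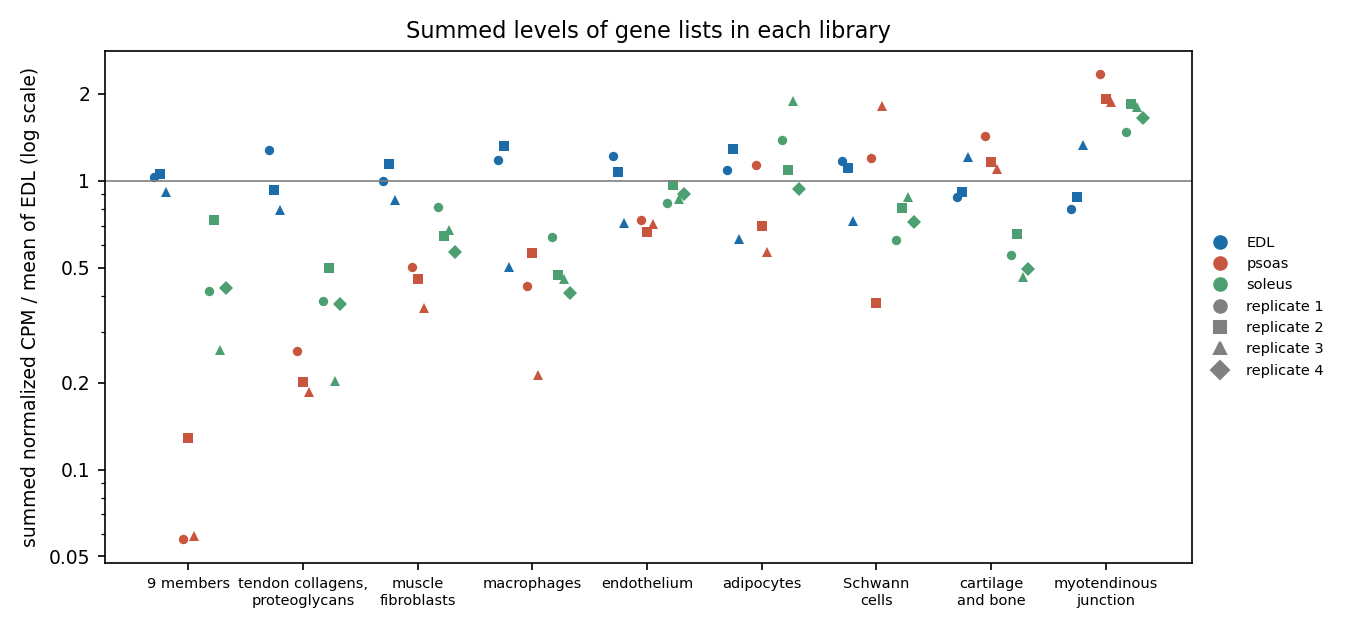
Summed normalized CPM of each gene list in each library, divided by the mean of the EDL libraries (log scale), with 1 point per library and color for the muscle. The 9 genes fall furthest in psoas (33.1 to 74.4 CPM against 527 to 609 in EDL), and fibroblast markers fall less (536 to 740 against 1266 to 1691). The junction sum lies above EDL in both other muscles. Without Xirp2 that sum is 562 to 658 CPM in psoas, 648 to 754 in EDL and 799 to 902 in soleus.

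The genes whose pattern over the 10 libraries was most like the mean of the 9, each on a log2 scale centred on its own mean, were Cpxm2 (root-mean-square difference 0.204), Fmod (0.241), Clec11a (0.331), Col8a2 (0.368), Itgbl1 (0.381), Col12a1 (0.389), Prph (0.434) and Zfp185 (0.445), out of 12704 genes with a mean of at least 1 CPM. Cpxm2 averaged 59.8 CPM in EDL, 4.16 in psoas and 30.8 in soleus, and Fmod, a collagen-binding proteoglycan, averaged 109.7, 6.47 and 44.4. The libraries and their depth are shared by all these genes, and the measure carries no test.

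Among the 9, the pattern of Mkx lay closest to the mean (0.272) and those of Wif1, Cilp and Comp farthest (0.962, 0.946 and 0.847). Tnmd and Cilp2 were each other's nearest gene of all genes searched (0.409), and Thbs4 was nearest to Mkx (0.470). Scx was nearest to Thbs2 (0.302), Mkx to Cpxm2 (0.333), Comp to Col8a2 (0.712), Tnc to Col11a2 (0.346), Cilp to Nrn1 (0.302) and Wif1 to Kera (0.424). For Scx the nearest of the 9 was Mkx (0.659), which ranked 98 among all genes by nearness, and for Cilp it was Scx (0.732), which ranked 87.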

How the data were processed

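RNA of 10 wild-type mouse muscle libraries (3 EDL, 3 psoas, 4 soleus) was measured with a stranded total RNA kit. Per the labels and the study's methods, the authors deposited raw read counts per gene. The submitters' processing notes name FastQC, Trimmomatic 0.32, BWA, Picard and TopHat2 2.1.1 and the builds mm10 and GRCm38.p4. The strand setting and the treatment of multi-mapping reads in the counting are not given in the sources used here. No columns of the authors' own comparisons were used. The labels' groups were taken as they stand.

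The deposited table had been filtered: all 16112 genes have at least 10 reads in at least 3 samples. Counts were fitted in edgeR 4.0.16 (R 4.3.3; TMM normalization, quasi-likelihood test, Benjamini-Hochberg adjustment), with muscle as the only term, and calls needed an adjusted p under 0.01 and a fold over 2. The study sequenced its libraries over 3 runs and corrected the values behind its clustering and principal components for sequencing batch. Its methods do not say which library was in which run. The run was a term in none of the fits here, and its part in the results was not tested. Alternatives were DESeq2 1.42.0, limma 3.58.1 (voom), other scalings, filters and covariates, and the omission of each library. Ratios and figures were made in Python 3.11.15 with pandas 2.3.3, scipy 1.17.1 and matplotlib 3.10.9. Scripts were tested on simulated data. Coordinates are of GRCm38 (GENCODE M21). Intervals between replicates are SD or SE.

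The 9 genes and all gene lists were chosen with earlier results of these data known. The text names all 9 genes, from each list and comparison at most the 2 called genes with the largest increase and the 2 with the largest decrease, the 8 genes most like the mean pattern, the gene nearest to each of the 9, and genes that overlap them. Libraries with the same replicate number were not paired: correlations of their deviations ranged from -0.23 to 0.50. Between libraries of the same animal code the correlations were 0.34 (psoas 1 and soleus 1), 0.19 (EDL 3 and soleus 2) and 0.38 (psoas 3 and soleus 4).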

Additional observations from a re-analysis of the deposited data

How the results depend on the processing

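The reported calls among the 9 genes were 9 for psoas against EDL, 0 for soleus against EDL and 6 for soleus against psoas. A test against a fold of 2 (glmTreat) called 2 in psoas against EDL, where it called 27 of all genes. It called 2 in soleus against psoas, where it called 176 of all genes. Limma-voom called 5, 1 and 3 in the 3 comparisons (353, 976 and 818 over all genes). In soleus against EDL, an adjusted p under 0.05 gave 1 (1853 over all genes) and limma-voom with animal as a random effect 1 (1053). Sex as a covariate without soleus 3 gave 2 there (786 over all genes). In soleus against psoas, fitting only those muscles gave 3 (729 over all genes) and read trimming as a covariate 2 (566). Leaving out 1 library gave 2 to 9, 0 to 1 and 2 to 8 calls. Over all genes it gave 61 to 963, 385 to 1511 and 493 to 964. Limma-voom with animal as a random effect called 6 in psoas against EDL and 6 in soleus against psoas (400 and 1005 over all genes). The replicate number as a block, which joins libraries of 1 animal only in psoas 1 and soleus 1, gave 6, 0 and 4 calls. That fit called 146, 586 and 539 of all genes. Not every library correlated best with its own number. The fold of Scx in soleus against EDL changed sign to 0.0032 (limma-voom with animal as a random effect) and 0.029 (thinned counts), with -0.47 to 0.18 when 1 library was left out. Cilp turned to 0.33 there with read trimming as a covariate. The difference in log2 ratio Tnc to Tnmd, psoas vs EDL, lay between -0.024 and 0.76 with 1 library left out. The cause of these changes was not tested. Over all genes, 340, 929 and 917 calls became 27 to 1233, 185 to 1853 and 176 to 1563. Depth limits Wif1, Cilp2 and Mkx in psoas, with at most 22 reads in a library.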
